A study of Mus musculus with 9 samples.

Results

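The comparison described here is that of stressed mice labelled CRS-NKAα1+/- with stressed wild-type mice, labelled CRS-WT, in the ventral hippocampus. It holds 6 of the 9 RNA-seq libraries of the series, 3 in each group, and the 17753 of 53465 listed genes whose FPKM averaged at least 0.5 over the 9 libraries. FPKM counts sequenced fragments scaled to the length of the transcript and to the depth of the library. Both groups carry the prefix CRS, an abbreviation in common use for chronic restraint stress that the labels do not spell out, so no unstressed animal enters the comparison. The mark +/- stands for mice with 1 intact copy of the gene for NKAα1, the α1 subunit of the sodium pump, and CRS-WT animals carry no named allele or agent. The third group, CRS-WT-DR5-12D, is wild-type mice under the same prefix with an agent named DR5-12D, and its values are given only beside those of the other groups. The tissue is bulk and freshly isolated, and the sources used here give no age, no sex, no construct of the NKAα1 allele and no key that ties a library to an animal. The p-values therefore rest on the spread among the libraries alone, and that spread may be technical. Wherever 3 values follow a group's name below, they are those of its replicates 1, 2 and 3, in that order.

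The sodium pump, or Na,K-ATPase, exports sodium and imports potassium at the cost of ATP, and the gradients it builds drive the membrane potential, the uptake of transmitters and the export of calcium. Its catalytic α subunit works with a β subunit and often with a small FXYD regulator. The ventral hippocampus is the part of the hippocampus tied most closely to anxiety and stress behaviour. Repeated stress is known to engage microglia, the resident immune cells of the brain, along with the vessel wall and the NF-kappaB pathway, in which cytokines such as TNF and interleukin-1 release NF-kappaB proteins that switch on chemokine, adhesion and feedback inhibitor genes.

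Depth ran from 15117452 to 27323380 fragments per library, taken from the deposited scale. Prox1, the transcription factor that marks granule cells of the dentate gyrus, stood at 11.6, 9.96 and 7.92 FPKM in CRS-WT and at 1.28, 0.9 and 7.51 in the libraries labelled CRS-NKAα1+/-. CRS-WT-DR5-12D stood at 1, 10.2 and 9. The 3 libraries under 3 FPKM, 2 of them labelled CRS-NKAα1+/-, thus hold less dentate gyrus. They also had lower values of the ventral marker Nts (0.409 to 0.428 FPKM against 3.40 to 9.28 elsewhere), which touches the tissue label itself. Cortical markers did not move as one. Lamp5 was higher in them (64.5 to 97.2 against 12.2 to 15.9), as was Cux2 (10.1 to 11.2 against 2.18 to 3.66). Rorb differed less (2.29 to 2.78 against 1.35 to 2.05), and Fezf2 overlapped. Of 15 measured cortex and subiculum genes 10 had lower values in the libraries labelled CRS-NKAα1+/- than in CRS-WT. Their medians against the CRS-WT mean were −0.20, −0.49 and −0.38 on the log2 scale in replicates 1, 2 and 3 of that label. In CRS-WT-DR5-12D replicate 1, which is also under 3 FPKM, the median was 0.03. The lower medians thus did not follow the Prox1 level. Replicate 3 is the only library labelled CRS-NKAα1+/- with the Prox1 level of the other samples. The miRNA gene model Gm23935 took 4.95%, 4.67% and 19.3% of the summed FPKM in CRS-WT and 37.9%, 37.6% and 28.6% in the libraries labelled CRS-NKAα1+/-, which matters for any rescaling to a fixed sum. In bulk tissue fewer cells of a type and less RNA per cell cannot be told apart.

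No value given here checks the genotype, so directions are those of libraries labelled CRS-NKAα1+/-. The β1 gene Atp1b1 of the pump, 18.7% of whose exon bases are shared with Nme7, had a log2 fold change of −0.17 ± 0.15, beside a median of 0.01 over all genes tested, and turned to 0.0844 without the low-Prox1 libraries and to 0.11 with the dentate covariate. The β2 gene Atp1b2 stood at 0.21 ± 0.11 (limma adjusted p 0.387), with overlap. Among 11 regulators and partners the FXYD genes went opposite ways. Fxyd1 (phospholemman), an inhibitor of the pump, stood at 29.8, 32.7 and 25.8 FPKM in CRS-WT and at 17.7, 19.3 and 19.9 in the libraries labelled CRS-NKAα1+/-, or −0.60 ± 0.14 on the log2 scale, with a Benjamini-Hochberg adjusted p of 0.196 from limma against a threshold of 0.05. Fxyd5, or dysadherin, a modulator linked to cell adhesion, stood at 4.01, 3.72 and 3.73 against 7.89, 8.44 and 4.94 (0.72 ± 0.20). Neither passed the threshold, and in both the groups did not overlap. Calcium pumps and sodium exchangers, which work against the gradients the pump sets, had 0 of 14 called and a median of −0.13, which was 0.06 without the low-Prox1 libraries.

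Over all genes tested, 4 rose and 0 fell in the libraries labelled CRS-NKAα1+/- against CRS-WT at an adjusted p under 0.05 (limma, two-sided), which is 0.0225% and 0.0% of 17753. Before adjustment, 1349 genes with higher values (7.6%) and 1155 with lower values (6.51%) had a p under 0.05. The groups did not overlap in 1927 genes with higher values (10.9%) and in 1778 with lower values (10%). These shares are the background against which the counts for gene lists below are read. Apart from the 4 genes called, none of the genes named here passed the adjusted threshold in the comparison as fitted, so their log2 fold changes stand as values with their errors.

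The 4 genes that rose were Srgn, C5ar1, Shc4 and Gm43701, all at a limma adjusted p of 0.0366. Srgn (chromosome 10, minus strand) encodes serglycin, the core protein on which immune cells and endothelium pack proteases and chemokines in granules. It stood at 4.90, 5.69 and 5.61 FPKM in CRS-WT and at 11.8, 13 and 11.9 in the libraries labelled CRS-NKAα1+/-, a log2 fold change of 1.05 ± 0.10. The 3 higher values lay close to each other whether or not the library had low Prox1, and the groups did not overlap. CRS-WT-DR5-12D stood at 2.80, 3.69 and 3.69, below each CRS-WT library.

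C5ar1 (chromosome 7, minus strand) encodes the receptor through which the complement fragment C5a attracts and activates myeloid cells. Its values were 0.413, 0.515 and 0.466 FPKM in CRS-WT, from 29, 20 and 26 fragments, and 2.56, 3.95 and 4.60 in the libraries labelled CRS-NKAα1+/-, from 103, 230 and 310 fragments. The ratio of mean FPKM was 7.97, while the log2(FPKM + 1) scale, which shrinks low values, gave 1.66 ± 0.17. The highest of the 6 values was that of replicate 3. CRS-WT-DR5-12D stood at 0.148, 0.266 and 0.429, again at or under the CRS-WT level.

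Shc4 and Gm43701 had another pattern over the 3 groups. Shc4 (chromosome 2, minus strand) encodes an adaptor of the Shc family, which couples receptor tyrosine kinases to Ras and is expressed mainly in the nervous system and in melanocytes. It stood at 6.24, 6.55 and 6.42 FPKM in CRS-WT and at 12.1, 12.1 and 10.1 in the libraries labelled CRS-NKAα1+/- (0.75 ± 0.08), with 11.3, 10.8 and 11.0 in CRS-WT-DR5-12D. The antisense RNA Gm43701, 8.44% of whose exon bases are shared with Bloc1s4, stood at 0.374, 0.846 and 0.354 FPKM, from 4, 5 and 3 fragments, against 4.57, 5.42 and 8.88 (2.23 ± 0.23). In CRS-WT-DR5-12D it stood at 7.41, 8.62 and 10.5. For both genes CRS-WT was thus the group that stood apart, while for Srgn and C5ar1 it was the group labelled CRS-NKAα1+/-. The sources used here do not state whether the libraries kept strand, and reads of an antisense RNA and of its partner cannot be told apart.

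The calls rest on few libraries. No gene was called by limma without CRS-WT replicate 1 or 2, without replicate 2 of the libraries labelled CRS-NKAα1+/-, or without replicate 2 or 3 of CRS-WT-DR5-12D, where 1300 to 2372 genes had an unadjusted p under 0.05. Without replicate 1 or 3 of those labelled CRS-NKAα1+/- 22 and 25 genes were called. C5ar1 and Srgn were among both the 22 and the 25, with Shc4 and Gm43701. Without the 3 low-Prox1 libraries, 40 genes rose and 1 fell, a fit in which replicate 3 stands alone for its group and is assumed to vary like the other groups. Those 40 included Tnf, Il1b, Cxcl1, Cxcl2, Cebpb, Gpr84, Tnfaip3 and Tlr2, besides C5ar1, Srgn and Gm43701. With the mean of the dentate granule cell genes as a covariate 1 gene was called, Gm43701.

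**Figure D1:**
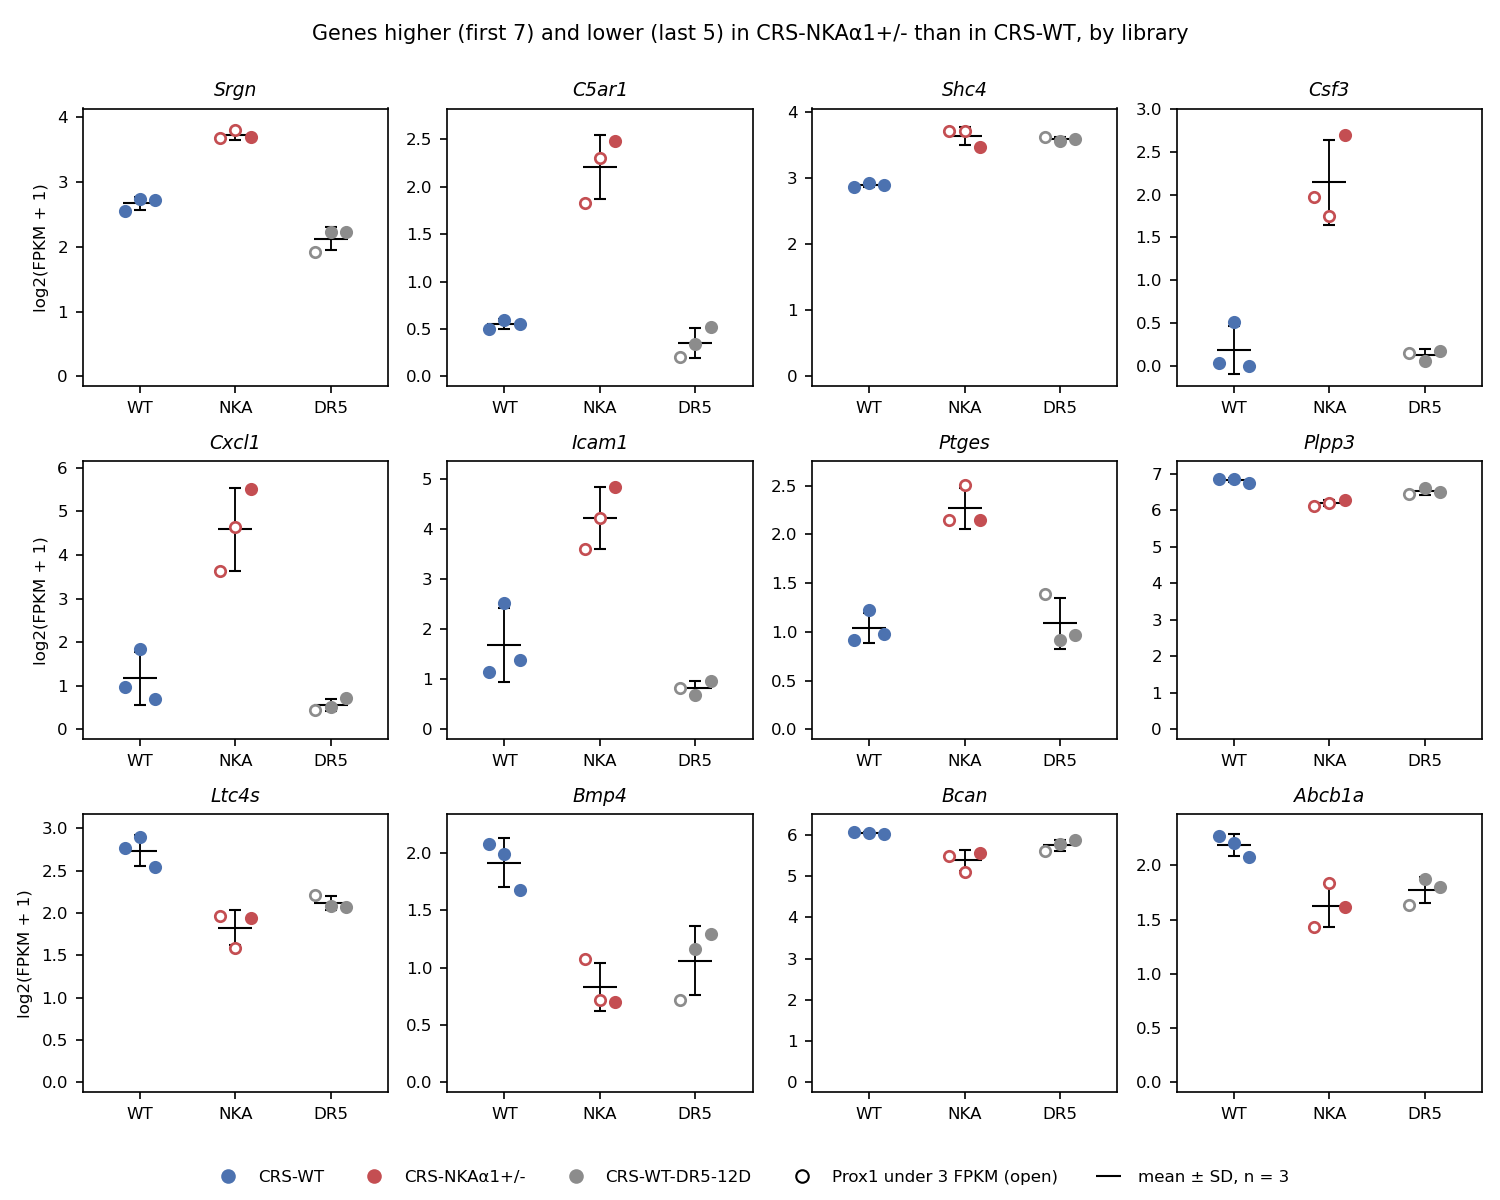
Each panel plots log2(FPKM + 1) of 1 gene for the 3 libraries of each group, with the mean and SD as black bars (n = 3) and open circles for the 3 libraries with Prox1 under 3 FPKM. In the first 7 panels every library labelled CRS-NKAα1+/- lies above every CRS-WT library, and in the last 5 below, with the filled circle of replicate 3 on the same side as the open circles.

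Genes that NF-kappaB is known to switch on had higher values as a group, and the library with a normal Prox1 level had the highest. Of 19 measured genes of the NF-kappaB and TNF response list 18 lay above 0, and in 12 the groups did not overlap with higher values, or 63.2% beside the background of 10.9%. None was called over all genes. The median log2 fold change was 0.58, and set against the CRS-WT mean the median stood at 0.29 and 0.38 in replicates 1 and 2 and at 1.12 in replicate 3. The list holds both the genes through which the pathway acts and those that brake it.

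Tnf, the cytokine that gives the list its name, stood at 0.201, 0.0807 and 0.0844 FPKM in CRS-WT and at 2.69, 3.91 and 16.7 in the libraries labelled CRS-NKAα1+/- (2.61 ± 0.49). Its value in replicate 3 was the highest by a wide margin, the groups did not overlap, and CRS-WT-DR5-12D lay between 0.0374 and 0.0698, under every CRS-WT library. The feedback inhibitors had higher values too. Nfkbia, which encodes the inhibitor IκBα that holds NF-kappaB in the cytoplasm, stood at 19.1, 29.3 and 17.5 FPKM against 36.4, 57.5 and 75.0 (1.29 ± 0.28), and Tnfaip3, which encodes the ubiquitin-editing enzyme A20, at 0.998, 1.15 and 0.759 against 2.19, 3.96 and 6.17 (1.3 ± 0.25). The genes for NF-kappaB proteins themselves showed small differences, with Rela at 0.11, Nfkb1 at 0.04 and Relb at −0.06, while Nfkb2 stood at 0.32 with no overlap.

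Chemokines, the secreted proteins that draw leukocytes, had the highest median of the 49 lists described, 1.42 over 14 measured genes, of which 12 lay above 0. In 5 the groups did not overlap with higher values (35.7%), and the medians by library were 0.14, 1.63 and 3.14. Cxcl1, a neutrophil attractant made by endothelium and astrocytes, stood at 0.956, 2.61 and 0.615 FPKM in CRS-WT and at 11.3, 23.8 and 44.9 in the libraries labelled CRS-NKAα1+/- (3.42 ± 0.46, limma adjusted p 0.0595). The related gene Cxcl2 stood at 0.159, 0.256 and 0 against 2.59, 7.34 and 11.7 (2.68 ± 0.38). Ccl12, a monocyte attractant, stood at 0.886, 2.71 and 3.52 against 11.7, 33.8 and 52.5 (3.18 ± 0.51). In all 3 genes replicate 1 was the lowest and replicate 3 the highest library of its label, and Cxcl1 stood at 0.366 to 0.654 in CRS-WT-DR5-12D. Ccl2, Ccl3 and Ccl4 were high in replicates 2 and 3 only and overlapped CRS-WT in replicate 1. Ccl4, for example, stood at 0.0555, 0.200 and 0.279 FPKM in CRS-WT against 0.194, 2.34 and 10.9. Cxcl12, a chemokine that vessels and neurons make at rest, went the other way with 10.8, 6.41 and 5.58 against 3.74, 4.37 and 4.09 FPKM (−0.72 ± 0.19).

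The promoters of these genes were searched for the NF-kappaB motif GGANTTTCC on both strands, in the 300 bases from 250 before to 50 after each RefSeq start (GRCm38.p6). It was found in the promoters of 1.451% of 27025 genes, in 6 of 15 NF-kappaB list genes with a promoter found and in 3 of 9 chemokine genes. None of the 7 and 9 promoters found for the lower genes of smallest p and of largest change held it. Those sets are too small to differ from a background of 1.451% by holding none. Among the genes with no match were Tnf and Ccl12. The windows below, from 5 of the genes with a match, were chosen as examples after the values were seen. They hold the match in capitals with up to 30 bases on each side, written on the strand of the gene. The match begins at −70, −96, −153, −178 and −24 from the start, in the order given, and a further match lies at −29 in Nfkbia. An E-box, CACGTG, begins at −33 in Tnfaip3 and does not overlap the match.
Cxcl1 chr5:90891145-90891213 plus strand: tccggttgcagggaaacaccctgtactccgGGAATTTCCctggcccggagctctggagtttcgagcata
Cxcl2 chr5:90903773-90903841 plus strand: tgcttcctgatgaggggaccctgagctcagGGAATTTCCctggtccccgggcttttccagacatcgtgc
Icam1 chr9:21015757-21015825 plus strand: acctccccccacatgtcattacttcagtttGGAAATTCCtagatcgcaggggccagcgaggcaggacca
Nfkbia chr12:55492787-55492855 minus strand: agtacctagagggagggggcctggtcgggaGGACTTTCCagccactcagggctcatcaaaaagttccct
Tnfaip3 chr10:19015396-19015464 minus strand: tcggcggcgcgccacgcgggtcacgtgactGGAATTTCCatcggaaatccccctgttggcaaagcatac
Cxcl1 and Cxcl2, neighbours on chromosome 5, share the same 9 letters at the match. A match is a description of the letters and not a measured binding site.

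Interleukin-1 genes split by role. Il1b, the secreted cytokine, stood at 0.557, 1.32 and 0.387 FPKM in CRS-WT and at 5.19, 19.1 and 40.7 in the libraries labelled CRS-NKAα1+/- (3.34 ± 0.58). Il1a stood at 0.445, 1.17 and 0.818 against 2.85, 4.12 and 19.4, with 11.2% of its exon bases shared with Gm14023. The decoy receptor gene Il1r2 was higher (0.72 ± 0.25), and the signalling receptor gene Il1r1 stood at 3.03, 3.39 and 2.22 against 0.502, 0.382 and 2.14. Il1r1 was low in the low-Prox1 libraries of both groups, 0.324 in CRS-WT-DR5-12D replicate 1, whereas the cytokines were not. The sensor Nlrp3 stood at 0.325, 0.505 and 0.295 against 0.756, 0.936 and 4.44 (0.95 ± 0.37), and the inflammasome enzymes Casp1 and Casp4 lay at −0.06 and −0.02. Of 12 measured genes 6 lay above 0 and 6 below, with a median of 0.12.

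Further immune and stress genes are described with their values, chosen for the size of their difference or after their values were seen. Gpr84, a receptor for medium-chain fatty acids on activated microglia and macrophages, stood at 1.53, 1.32 and 1.46 FPKM in CRS-WT and at 4.24, 10.9 and 20.6 in the libraries labelled CRS-NKAα1+/- (2.18 ± 0.42), though 39.5% of its exon bases are shared with Gm49482. Cebpb, a transcription factor of the acute phase response that shares 20.7% of its exon bases with Tmem189, stood at 1.44, 0.924 and 1.23 against 3.06, 14.0 and 16.5 (2.22 ± 0.49), and also at 4.21, 5.92 and 7.30 in CRS-WT-DR5-12D. Cdkn1a, the cell-cycle inhibitor p21, stood at 8.02, 6.61 and 5.91 against 32.1, 44.2 and 23.4 (2.09 ± 0.43), with 18.8 in the low-Prox1 library of CRS-WT-DR5-12D beside 4.74 and 5.85. Lcn2, an iron-binding acute phase protein of astrocytes and neutrophils, stood at 1.97, 19.1 and 4.94 against 28.5, 47.0 and 31.2 (2.34 ± 0.68). The CRS-WT value of replicate 2 came close to the other group there. The same CRS-WT library was also the highest of its group for S100a8, a neutrophil alarmin, at 3.59, 10.8 and 5.31 against 8.37, 59.2 and 29.6, where the groups overlapped.

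Most endothelial activation genes had higher values and most endothelial identity genes lower ones. In the endothelial activation list 10 of 12 measured genes lay above 0 with a median of 0.64, and 5 were higher with no overlap (41.7%). The 2 below 0, Cyr61 (−1.05 ± 0.49) and Vwf (−0.25 ± 0.14), were lower with no overlap (16.7% beside the background of 10%), and without the low-Prox1 libraries 8 lay above 0 and 4 below. Icam1 and Vcam1, adhesion molecules that hold leukocytes on the vessel wall, stood at 1.2, 4.78 and 1.63 against 11.2, 17.6 and 27.7 FPKM (2.54 ± 0.39, with 11.7% of Icam1 exon bases shared with Gm47079) and at 3.65, 6.18 and 3.56 against 8.32, 11.5 and 11.5 (1.09 ± 0.19). Sele, or E-selectin, which is made by activated endothelium, stood at 0.189, 1.91 and 0.633 against 4.36, 6.02 and 6.97 (1.91 ± 0.29, limma adjusted p 0.0866). Csf3, the growth factor of granulocytes, stood at 0.0259, 0.421 and 0 against 2.94, 2.37 and 5.48 FPKM (1.96 ± 0.24, limma adjusted p 0.0568), from 1, 9 and 0 fragments against 65, 76 and 203. In each of these genes the lowest library labelled CRS-NKAα1+/- lay above the highest CRS-WT library, which was replicate 2 throughout. Bcl6b, a transcriptional repressor found in endothelium, stood at 0.492, 0.391 and 0.360 against 1.37, 1.94 and 1.48 FPKM (0.87 ± 0.12).

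Genes that define resting brain endothelium and the cells around it had lower values. Of 16 measured endothelial genes 12 lay below 0, with a median of −0.26, and 7 were lower with no overlap (43.8% beside the background of 10%). Against the CRS-WT mean the list medians were −0.33, −0.07 and −0.31 in the libraries labelled CRS-NKAα1+/-. In CRS-WT-DR5-12D they were −0.48, −0.19 and −0.28, so the lower values were not particular to the label CRS-NKAα1+/-. Flt1, a receptor for VEGF, stood at 2.83, 2.32 and 2.29 FPKM in CRS-WT and at 1.17, 1.25 and 1.45 in the libraries labelled CRS-NKAα1+/- (−0.60 ± 0.10, limma adjusted p 0.0937). Abcb1a, the drug efflux pump of the blood-brain barrier, stood at 3.83, 3.62 and 3.21 against 1.70, 2.57 and 2.07 (−0.55 ± 0.12), and Tek, the angiopoietin receptor, at 2.05, 2.02 and 2.30 against 1.49, 1.45 and 1.26 (−0.38 ± 0.09). Itm2a, a membrane protein enriched in brain endothelium, had the largest difference of the list, with 25.6, 23.1 and 24.7 against 5.86, 8.86 and 15.4 (−1.3 ± 0.28). The junction genes Cdh5 and Pecam1 did not follow, with overlapping groups and Cdh5 at 2.24, 1.65 and 1.88 against 1.66, 2.52 and 1.63.

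Other vascular genes were among those with the smallest p. Rgs5, a marker of pericytes, stood at 22.8, 25.8 and 23.4 against 10.5, 10.7 and 16.6 (−0.90 ± 0.16), and 13, 16.4 and 15 in CRS-WT-DR5-12D, so CRS-WT was the high group. Grrp1 stood at 6.06, 5.76 and 6.91 against 2, 1.11 and 2.75 (−1.33 ± 0.22), with 1.38, 1.07 and 2.16 in CRS-WT-DR5-12D. Gkn3, which in mouse brain marks arterial endothelium, stood at 4.45, 2.47 and 1.72 against 0.0746, 0.309 and 0.401 (−1.57 ± 0.25), while CRS-WT-DR5-12D stood at 1.83, 2.77 and 2.94, within the CRS-WT range. Of 10 measured mural cell genes 8 lay below 0 (median −0.29), 2 of them with no overlap.

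**Figure D2:**
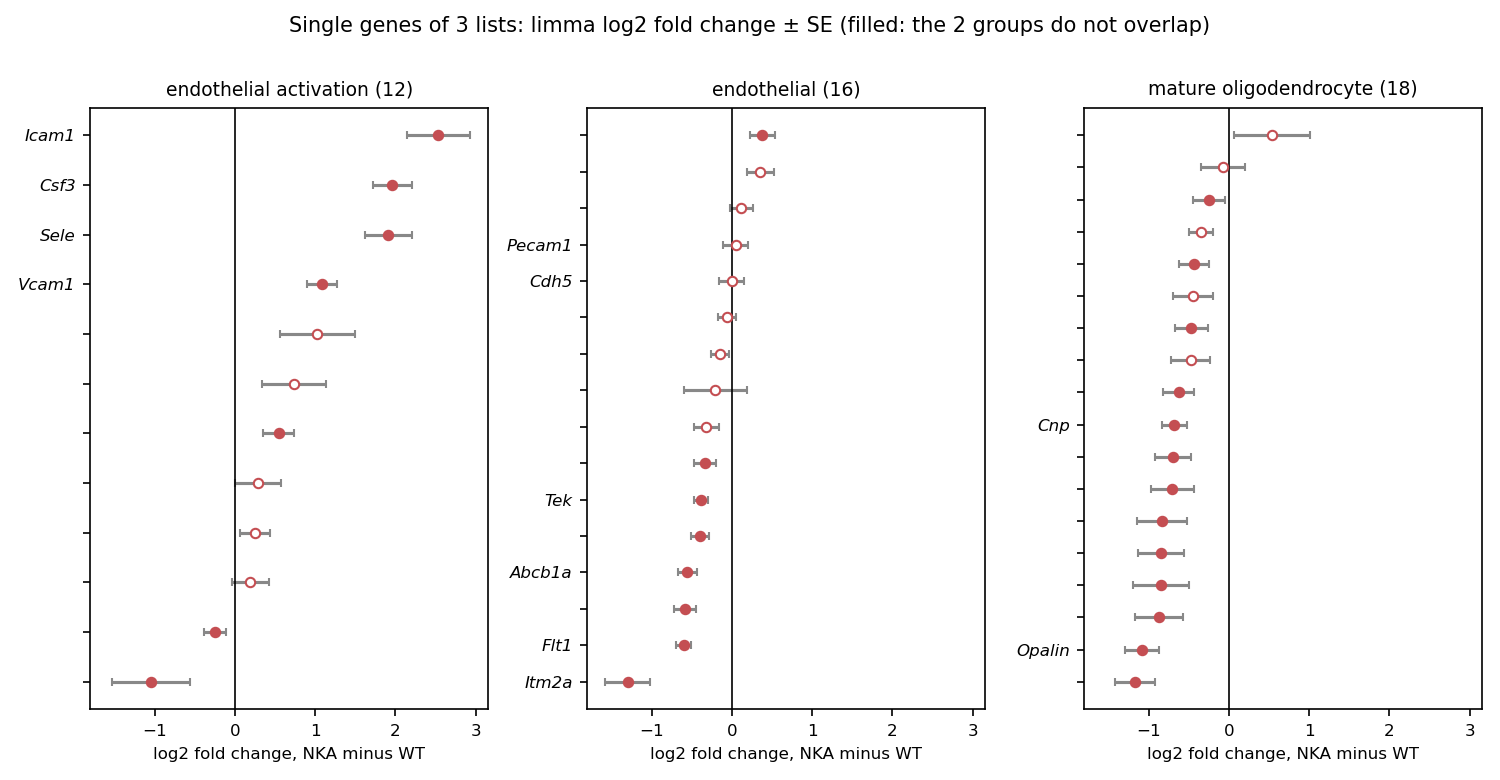
Points are limma log2 fold changes, libraries labelled CRS-NKAα1+/- minus CRS-WT, with their standard errors, for the measured genes of 3 lists, labelled where the text names the gene and filled where the 3 libraries of each group do not overlap. Activation genes run up to 2.54, while 12 of 16 endothelial genes and 17 of 18 mature oligodendrocyte genes lie below 0.

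Microglial genes lay on both sides of 0. Of 16 measured identity genes 11 lay above 0 and 5 below (median 0.27), and in 7 the values were higher and in 3 lower with no overlap. The 3 lower genes encode surface receptors of surveying microglia. Gpr34, a receptor for lysophosphatidylserine, stood at 5.48, 4.62 and 4.26 against 1.96, 2.22 and 1.90 FPKM (−0.93 ± 0.17), the lectin Siglech at 6.42, 6.37 and 4.74 against 3.15, 2.24 and 3.70 (−0.77 ± 0.18), and the ADP receptor P2ry12 at 10.6, 12.2 and 8.66 against 5.85, 5.93 and 6.30 (−0.70 ± 0.18). All 3 were lower in replicate 3 as well, and in CRS-WT-DR5-12D they ran within or close to the CRS-WT range, P2ry12 at 13.8, 12.1 and 7.95.

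The higher microglial genes named here encode a signalling adaptor, a complement protein and a marker of resident microglia. Tyrobp, the signalling adaptor of TREM2, stood at 44.7, 54.2 and 44.5 against 64.8, 89.6 and 69.7 FPKM (0.62 ± 0.15), and C1qb, a chain of the complement initiator C1q, at 123, 127 and 98.8 against 162, 217 and 158 (0.61 ± 0.16). Tmem119, a marker of resident microglia, stood at 18.1, 19.1 and 14.6 against 20.6, 31.0 and 19.3 (0.41 ± 0.18). In these libraries the defining markers of border macrophages were low, with Mrc1 at no more than 0.675 FPKM in any of the 9, and the T cell marker Cd3e stood at no more than 0.357. Of 4 neutrophil markers Camp reached no more than 0.655 and Ngp, highest in CRS-WT replicate 2, no more than 2.44, while S100a8 and S100a9 were higher, and S100a9 reached 111 FPKM in replicate 2 of the libraries labelled CRS-NKAα1+/- (16.4, 111 and 43.8 against 5.82, 18.9 and 10.7). Their part in the cytokine values was not tested.

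Complement genes beyond C5ar1 were mostly higher, 13 of 14 above 0 with a median of 0.33, and 7 higher with no overlap (50%). The proteases that C1q activates were among them, C1ra at 0.945, 0.888 and 1.04 against 2.25, 5.15 and 2.18 FPKM (1.03 ± 0.24) and C1s1 at 0.444, 0.655 and 0.693 against 1.14, 1.59 and 1.24 (0.54 ± 0.12, with 18.4% of its exon bases shared with Gm16567). C3 and C4b, the central components, differed by 0.24 and −0.22 with overlap. Of 10 Toll-like receptor genes and adaptors all lay above 0 (median 0.29). The groups were apart in 2 of them, Myd88 and Ticam1 (20% beside the background of 10.9%). Ticam1, the adaptor of TLR3 and TLR4, stood at 1.72, 1.88 and 1.46 against 2.63, 2.35 and 2.58 (0.39 ± 0.08). Tlr2 was high in replicates 2 and 3 only, at 1.29, 1.71 and 0.918 against 1.5, 7.79 and 10.7.

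Interferon response genes were all above 0, 18 of 18, with a median of 0.70, and 9 were higher with no overlap (50%). Here the highest library was replicate 2, the medians by library being 0.29, 1.51 and 0.49, unlike the NF-kappaB genes, which peaked in replicate 3. Ifit1, an antiviral effector, stood at 1.53, 1.27 and 0.937 against 3.08, 5.97 and 3.15 FPKM (1.14 ± 0.21). Irf9, a subunit of the interferon-activated factor ISGF3, stood at 2.6, 3.07 and 3.04 against 4.09, 7.16 and 5.21 (0.71 ± 0.17), and Irf7, which amplifies the response, at 1.51, 0.771 and 1.12 against 2.86, 16.7 and 3.15 (1.64 ± 0.51). Isg15 was much higher in replicate 2 alone and overlapped. It stood at 8.08, 3.67 and 3.54 in CRS-WT against 6.25, 42.0 and 9.85 in the libraries labelled CRS-NKAα1+/-. The class I gene H2-T23 was also highest in replicate 2, at 7.47, 5.77 and 6.27 in CRS-WT against 14.4, 41.0 and 13.6 (1.5 ± 0.42). Of the 15 antigen presentation genes 14 lay above 0, and 2 were higher without overlap (13.3%, near the background of 10.9%). The list median in replicate 1 was −0.22 beside 0.81 and 0.69.

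The core of the interferon-stimulated response element, GAAANNGAA searched on both strands, is more frequent in promoters at large, in those of 9.76% of 27025 genes, and was present in 7 of 13 interferon list genes with a promoter in the table. The windows of 3 of them show runs of the core, of which 1 match is in capitals, on either strand. The match begins at −103, −72 and −20 from the start in the order given.
Ifit1 chr19:34640756-34640824 plus strand: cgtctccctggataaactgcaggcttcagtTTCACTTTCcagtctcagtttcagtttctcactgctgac
Isg15 chr4:156200852-156200920 minus strand: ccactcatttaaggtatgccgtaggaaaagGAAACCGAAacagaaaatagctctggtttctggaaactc
Oas1a chr5:120907507-120907575 minus strand: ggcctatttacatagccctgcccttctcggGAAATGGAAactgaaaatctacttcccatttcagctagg
Among the 7 higher genes of smallest p with a promoter found, the same core occurs in C5ar1 and Srgn. In Srgn it lies at −220 from the downstream start, while the promoter of the upstream start holds none.

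Enzymes of eicosanoid synthesis, which turn arachidonic acid into prostaglandins and leukotrienes, split along the pathway. Ptges, the inducible prostaglandin E synthase, stood at 0.894, 1.33 and 0.974 FPKM in CRS-WT and at 3.43, 4.69 and 3.44 in the libraries labelled CRS-NKAα1+/- (1.23 ± 0.16, limma adjusted p 0.0595). Ptgs2, the inducible cyclooxygenase upstream of it, stood at 5.11, 7.11 and 5.30 against 7.63, 7.82 and 11.8 (0.55 ± 0.19), and the constitutive synthase gene Ptges2 differed by 0.22. Alox5ap, which presents arachidonic acid to 5-lipoxygenase, stood at 4.82, 5.26 and 4.03 against 9.63, 16.6 and 10.5 (1.18 ± 0.19, with 13.3% of its exon bases shared with Gm19719). The next enzyme but for the lipoxygenase itself, leukotriene C4 synthase Ltc4s, stood at 5.81, 6.46 and 4.82 against 2.90, 2 and 2.82 (−0.91 ± 0.13, limma adjusted p 0.0694), with 26.4% of its exon bases shared with Gm26542. In Ptges, Alox5ap and Ltc4s replicate 3 lay with the other libraries of its label, and the 2 groups compared did not overlap. Of 13 measured genes 5 were higher and 2 lower with no overlap.

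Glucocorticoid-induced genes had higher values in all 3 libraries by a similar step, the list medians being 0.36, 0.33 and 0.45. Of 20 genes 17 lay above 0 and 10 were higher with no overlap (50%). Arrdc2, an arrestin-domain gene that the hormone induces, stood at 3.01, 3.83 and 3.04 against 5.97, 4.92 and 6.09 FPKM (0.63 ± 0.14), and Plin4, a lipid droplet coat protein, at 0.558, 1.15 and 0.926 against 3.80, 1.64 and 2.14 (0.88 ± 0.23). Fkbp5, the chaperone that limits glucocorticoid receptor signalling, and Zbtb16 did not share the direction, at −0.11 and −0.04. The metallothionein gene Mt2 stood lowest of the list at −0.68 ± 0.38, with 299, 346 and 245 against 146, 118 and 354 FPKM, so that only the low-Prox1 libraries lay below CRS-WT. Nfkbia, Cdkn1a and Per1 belong to this list and also to others described here.

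Of 14 heat shock genes 7 lay above 0 and 7 below, with a median of 0.01, and in 4 the values were higher (28.6%) and in 1, Hsp90aa1, lower with no overlap. The 4 higher genes are given first, and the members named here were chosen after their values were seen. Hspa1a stood at 2.63, 2.50 and 2.28 FPKM against 11.1, 5 and 8.84 (1.37 ± 0.24, with 19% of its exon bases shared with Gm20481) and its near-identical copy Hspa1b at 5.01, 3.89 and 3.59 against 13, 6.13 and 14.1 (1.16 ± 0.28), so the split between these copies is uncertain. Dnajb1, the partner of HSP70, stood at 17.5, 17.5 and 18.3 against 37.8, 29.9 and 23.8 (0.73 ± 0.20), and Hspb1 at 8.13, 5.33 and 3.71 against 11.7, 8.95 and 14.6 (0.95 ± 0.29). Hspa8, Hsp90ab1 and Hspd1 lay at −0.06, 0.04 and −0.13.

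Of 16 homeostatic astrocyte genes 6 lay above 0 and 10 below, with a median of −0.12, and in 5 the values were lower and in 2 higher with no overlap. The genes below were named for a small p or after their values were seen. Plpp3, a lipid phosphatase that degrades lysophosphatidic acid and is enriched in astrocytes, stood at 115, 115 and 107 FPKM in CRS-WT and at 69.1, 72.5 and 77.0 in the libraries labelled CRS-NKAα1+/- (−0.62 ± 0.07). Its limma adjusted p of 0.0525 was the lowest of any gene with lower values that the rule named, and CRS-WT-DR5-12D lay between the groups at 85.7, 96.5 and 89.6. Asrgl1, an asparaginase-like enzyme, showed the same order with 56.2, 54.8 and 49.6 against 33.7, 33.1 and 38.6 (−0.60 ± 0.09), as did Sfxn5, a mitochondrial carrier, with 23.5, 21.7 and 19.7 against 14.9, 15.1 and 16.4 (−0.46 ± 0.08). Bcan, or brevican, a proteoglycan of the perineuronal matrix, stood at 66.8, 65.1 and 64.5 against 43.7, 33.4 and 46.3 (−0.67 ± 0.12). Apoe, the main lipid carrier of the brain, stood at 1257, 1339 and 1219 against 749, 695 and 912 (−0.70 ± 0.13).

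Markers of astrocyte identity did not all follow. S100b stood at 82.1, 83.9 and 74.4 against 65.1, 63.6 and 70.0 (−0.27 ± 0.07), and Sox9, a transcription factor of the lineage, at 8.09, 7.04 and 7.98 against 6.16, 5.70 and 5.38 (−0.37 ± 0.08). Gjb6, the gap junction protein connexin 30, stood higher, at 21.4, 21.4 and 18.6 against 29.2, 26.4 and 29.5 (0.45 ± 0.09). Among genes of reactive astrocytes Socs3, a feedback inhibitor of cytokine receptors, stood at 1.63, 3.29 and 1.47 against 4.73, 8.86 and 11.9 (1.57 ± 0.33), while Gfap lay at 168, 186 and 126 against 87.9, 145 and 117 with overlap, and Cd44 at 2.61, 1.66 and 1.73 against 0.745, 1.13 and 0.918 (−0.63 ± 0.18).

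Myelin and oligodendrocyte genes had lower values in all 3 libraries labelled CRS-NKAα1+/-, including the one with a normal Prox1 level. Of 18 measured mature oligodendrocyte genes 17 lay below 0, 13 of them with no overlap (72.2% beside the background of 10%), and the median was −0.65. By library the medians were −0.37, −0.90 and −0.51. Opalin, a membrane protein of myelinating cells, stood at 11.8, 10.7 and 12.0 FPKM in CRS-WT and at 4.14, 4.30 and 6.48 in the libraries labelled CRS-NKAα1+/- (−1.09 ± 0.21), and the myelin enzyme Cnp at 77.7, 69.5 and 75.6 against 52.9, 38.5 and 47.7 (−0.68 ± 0.16). CRS-WT-DR5-12D gave Opalin 13.6, 22.8 and 13.3, all above CRS-WT. Opalin did not stand for its list there. The list medians of CRS-WT-DR5-12D against the CRS-WT mean were −0.45, 0.36 and −0.15.

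Most genes of the oligodendrocyte precursor list had lower values, among them genes of the step to the myelinating cell. The precursor markers Pdgfra and Cspg4 did not. Of 14 measured genes of the precursor list 10 lay below 0, 7 of them with no overlap (50%), and the median was −0.25. Gpr17, a receptor of committed precursors, stood at 20.4, 23.8 and 18 against 13.1, 9.25 and 10.4 FPKM (−0.87 ± 0.13). Bmp4 stood at 3.22, 2.97 and 2.19 against 1.11, 0.648 and 0.628 (−1.08 ± 0.18), Enpp6, a marker of newly formed oligodendrocytes, at 1.28, 1.52 and 1.3 against 0.638, 0.530 and 0.357 (−0.65 ± 0.14), and Bcas1, expressed as myelination begins, at 48.6, 36.0 and 35.9 against 26.1, 14.5 and 21.1 (−0.96 ± 0.25, with 12.6% of its exon bases shared with antisense genes). Pdgfra and Cspg4, which mark the precursor, lay at 3.81, 3.11 and 3.25 against 4.17, 3.77 and 4.04 and at 0.07 on the log2 scale; neither was lower. In CRS-WT-DR5-12D Gpr17 was as low as in the libraries labelled CRS-NKAα1+/-, at 9.66, 8.94 and 10.04. Its neighbour Lims2, which shares 6.14% of its exon bases with it, stood at 10.02, 12.6 and 8.44 in CRS-WT and at 6.01, 4.58 and 4.26 in the libraries labelled CRS-NKAα1+/-. With DR5-12D it stood at 5.88, 5.64 and 5.52. For these genes CRS-WT was again the group that stood apart.

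**Figure D3:**
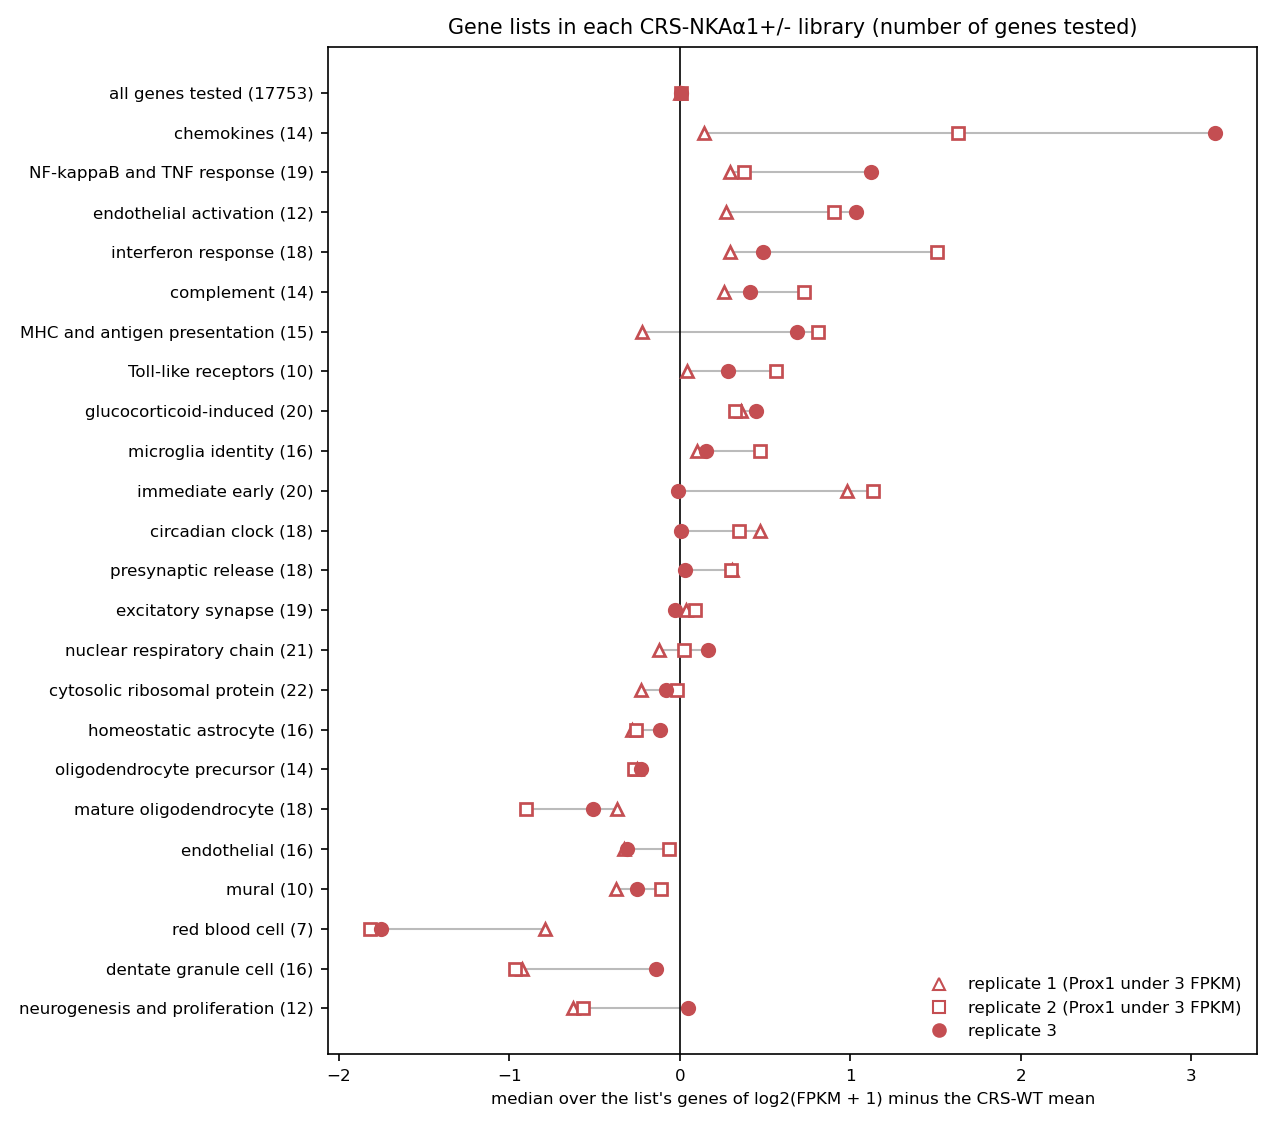
For each gene list and each library labelled CRS-NKAα1+/-, the point is the median over the list's measured genes of log2(FPKM + 1) minus the CRS-WT mean, with the number of genes in brackets and open symbols for the low-Prox1 replicates 1 and 2. In replicate 3 the immune, endothelial activation and glucocorticoid lists lie right of 0 and the oligodendrocyte, endothelial, mural and red cell lists left of it, while immediate early, clock, presynaptic and dentate lists lie within 0.14 of 0 in replicate 3.

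Blood transcripts were lower, and CRS-WT replicate 1 set part of the difference. All 7 measured red cell genes lay below 0, with a median of −1.45, and 5 were lower with no overlap. Against the CRS-WT mean the list medians were −0.79, −1.82 and −1.75 in the libraries labelled CRS-NKAα1+/-. In CRS-WT-DR5-12D they were −0.18, 0.07 and 0.21. Hba-a1, an adult α-globin gene, stood at 107, 25.5 and 34.6 FPKM in CRS-WT and at 14.4, 8.92 and 8.04 in the libraries labelled CRS-NKAα1+/- (−2.07 ± 0.49), and Alas2, the haem synthesis enzyme of red cells, at 2.79, 1.32 and 2.46 against 1.22, 0.937 and 0.826 (−0.65 ± 0.18). The adult globins come as near-identical copies, which leaves the single values uncertain. CRS-WT replicate 1 also held globins that adult blood lacks. Hbb-y, the embryonic β-like globin, stood at 195, 22.8 and 8.16 against 4.04, 2.09 and 1.03 (−3.47 ± 0.95), and Hba-x at 16.6, 2.19 and 1.33 against 0.681, 0.0471 and 0.122 (−2.01 ± 0.65). H19, an imprinted RNA of fetal tissue, stood at 43.4, 3.12 and 1.57 against 0.701, 0.467 and 0.155 (−2.45 ± 0.89). In all 3 the order within CRS-WT was the same, and CRS-WT-DR5-12D stood at 1.21 or less. Without CRS-WT replicate 1 the log2 fold changes were −2.22 for Hbb-y, −1.12 for Hba-x and −1.19 for H19, and the red cell median was −0.998. The cause was not tested.

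Other genes followed the Prox1 level of the library rather than its label. C1ql2, a granule cell synaptic protein, stood at 40.1, 29.0 and 31.9 FPKM in CRS-WT and at 0.926, 0.596 and 23.6 in the libraries labelled CRS-NKAα1+/- (−3.02 ± 1.32), with 0.973 in CRS-WT-DR5-12D replicate 1. Without the low-Prox1 libraries its difference was −0.48, and Lrrc10b went from −1.97 to −0.44. Immediate early genes, which neurons switch on within minutes of firing, had medians of 0.98 and 1.13 in replicates 1 and 2, of −0.01 in replicate 3 and of 1.33 in the low-Prox1 library of CRS-WT-DR5-12D. Egr4 stood at 4.69, 4.59 and 6.74 against 25.4, 22.5 and 4.69 FPKM, and Fos at 9.10, 2.36 and 3.92 against 16.1, 17.1 and 7.04. Replicate 3 lay among the CRS-WT values in both genes.

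Clock genes showed the same division. All 18 lay above 0 (median 0.26) and 5 were higher with no overlap (27.8%), yet the medians by library were 0.47, 0.35 and 0.01, and 0.26 in the low-Prox1 library of CRS-WT-DR5-12D. Per1, a repressor arm gene of the clock that glucocorticoids also induce, stood at 10.2, 10.3 and 11.9 against 22.8, 24.2 and 12.9 FPKM (0.78 ± 0.26), Cry2 at 15.8, 15.5 and 15.5 against 22.0, 22.4 and 17.6 (0.38 ± 0.12), and Bhlhe40, which represses clock targets, at 14.7, 14.3 and 14.4 against 31.0, 42.0 and 17.9 (0.94 ± 0.31). In replicate 3 each of them lay above the CRS-WT range by a small step only. The E-box CACGTG, the site of the clock activators, occurs in the promoters of 8.09% of 27025 genes and in 5 of the 16 clock genes with a promoter in the table. That of Per1 begins at −166 from the start and is shown as the example on the plus strand.
Per1 chr11:69098753-69098818 plus strand: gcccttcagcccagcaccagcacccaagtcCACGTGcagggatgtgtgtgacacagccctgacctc
Presynaptic genes had medians of 0.31, 0.30 and 0.03. With the low-Prox1 libraries left out replicate 3 stands alone for its label, so the list medians repeat those of that library. They were −0.01 for immediate early, 0.01 for clock and 0.03 for presynaptic genes. For the NF-kappaB, chemokine and mature oligodendrocyte lists they were 1.12, 3.14 and −0.51.

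**Figure D4:**
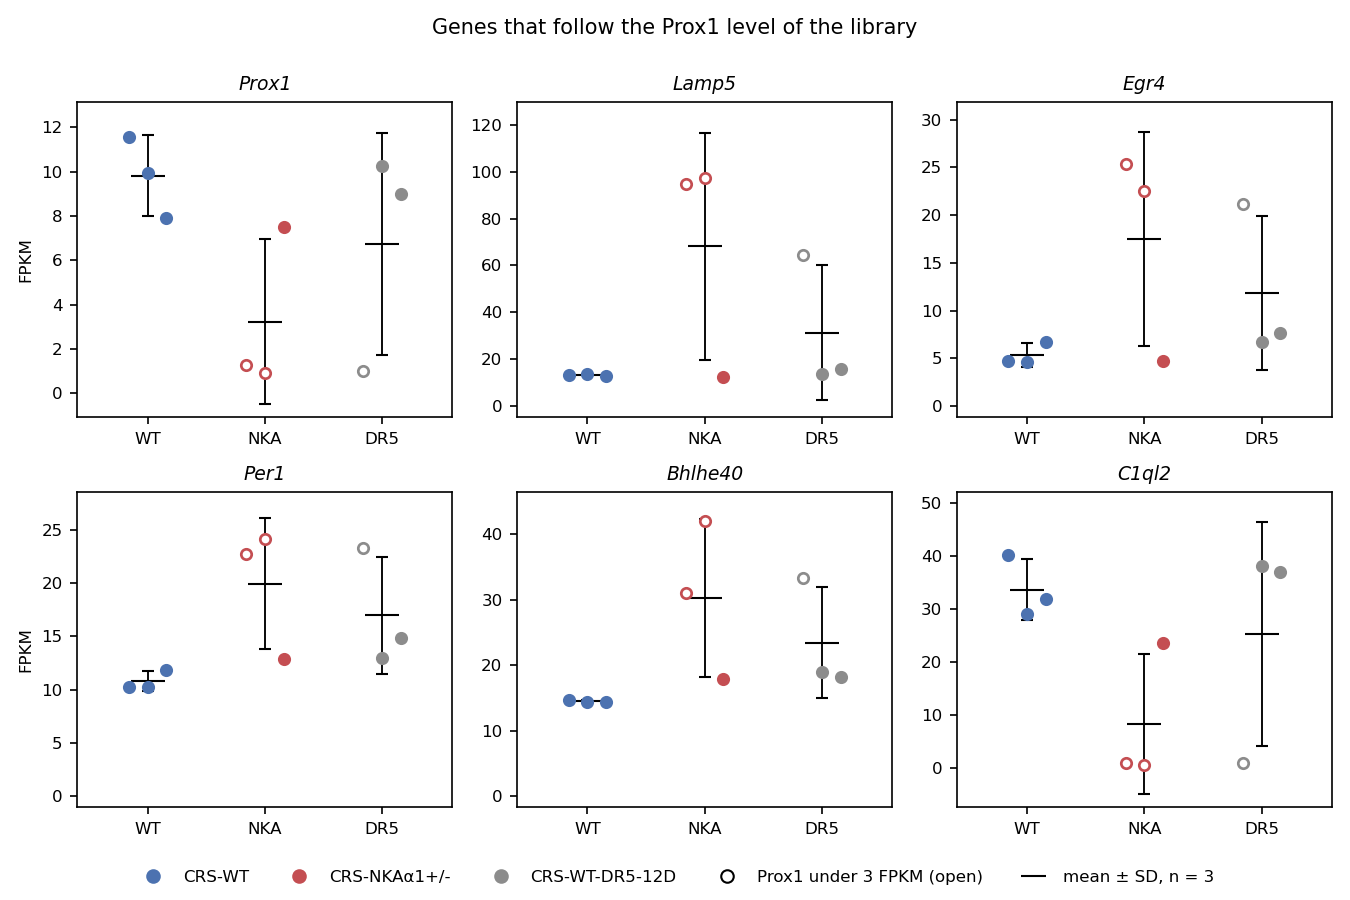
Each panel plots the FPKM of 1 gene for the 3 libraries of each group, with the mean and SD as black bars (n = 3). The open circles, the 3 libraries with Prox1 under 3 FPKM, lie apart from the filled ones in both groups that hold them, and the filled circle of replicate 3 lies nearer to CRS-WT than the open ones.

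Several groups of housekeeping and synaptic genes showed little difference. Of 21 nuclear genes of the respiratory chain 0 had groups apart in either direction, and their log2 fold changes ran from −0.09 to 0.20 (median 0.04). By library the medians were −0.12, 0.02 and 0.17. Of 19 excitatory synapse genes 1 had groups apart (median 0.02), and the hypoxia and glycolysis list had a median of −0.02 over 14 genes. The 13 mitochondrially encoded genes had a median of −0.05. Ribosomal protein genes leaned lower, 19 of 22 below 0 with a median of −0.12, among them Rpl5 at 73.6, 65.5 and 59.5 against 54.9, 52.6 and 53.8 FPKM (−0.29 ± 0.08, with 26.7% of its exon bases shared with other genes).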

How the data were processed

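RNA of mouse ventral hippocampus was sequenced in 9 libraries, 3 in each of 3 groups. The authors deposited 1 table of FPKM for 53465 gene identifiers, and per the submitters' processing notes cutadapt, HISAT2, RSEM 1.2.30 and the build GRCm38 were named. No source used here states the annotation release, the strandedness or a filter. Columns were mapped to libraries by name. Positions, exon lengths and shared exon bases came from GENCODE vM21, which holds 53360 of the identifiers. From 91.7% to 91.9% of the non-zero values of tested genes were whole fragments, within 0.02 of a whole count, once multiplied by exon length and by 1 number per library, which gives the depths.

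Of 35485 genes above 0 in any library, the 17753 whose FPKM averaged 0.5 or more entered the fit. The analysis scale was log2(FPKM + 1), which understates changes of low genes, in limma 3.58.1 (R 4.3.3) with trend, group means only and all 9 libraries together. Tests were two-sided with Benjamini-Hochberg adjustment over all genes tested and calls at an adjusted p under 0.05. The fit was tested on simulated data. Tables were made in Python 3.11.15 (pandas 2.3.3, numpy 2.4.6) and plots with matplotlib 3.10.9. Promoters came from RefSeq (GRCm38.p6).

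The comparison, the gene lists and the genes searched for motifs were chosen with earlier results of these data known, so the lists are described by counts and medians beside those of all genes tested, without a test. Genes are named if called, if among the 10 of smallest unadjusted p or of largest change in each direction with a mean FPKM of at least 1, no overlap and a proper symbol, if among the 4 list members of smallest p, or as pump subunits and cell markers, and some of these are not reported here. Other list members are named after their values were seen. Alternatives were another pseudocount, other filters, the 2 groups alone, each library left out, the low-Prox1 libraries left out, a dentate covariate, a replicate block, quantile normalization and TPM. TPM without Gm23935 and voom on recovered fragments were added after seeing the data.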

Additional observations from a re-analysis of the deposited data

How the results depend on the processing

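The number of called genes, 4 in the comparison as fitted, was 5 with a pseudocount of 0.1, 4 with a mean FPKM of at least 2, 3 with the 2 groups alone and 4 after quantile normalization. It was 0 with no filter on low values, where 3538 genes had an unadjusted p under 0.05, 41 without the 3 low-Prox1 libraries, 1 with the dentate covariate and 1 with voom. Leaving out 1 library at a time gave 0 to 25, with 2 without CRS-WT replicate 3 and 2 without CRS-WT-DR5-12D replicate 1. Rescaling to TPM gave 7451, 98 higher and 7353 lower, and moved the median of all genes from 0.01 to −0.42. TPM after leaving out Gm23935, whose share of the summed FPKM differs between the groups, gave 15 and a median of 0.00. With a replicate block limma called 0 genes, with 2547 at an unadjusted p under 0.05. Deviations of same-numbered libraries correlated at −0.02, 0.01 and −0.01, and those of the other pairs at −0.06 to 0.07. The deviations also carry differences such as that in Prox1 level. These values therefore do not decide whether the numbers pair the samples.

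Of 109 genes followed under each alternative few changed sign. Without the low-Prox1 libraries Atp1b1 was at 0.0844, Egr4 at −0.14, Fibcd1 at 0.31 and Lamp5 at −0.11. With the dentate covariate Atp1b1 was at 0.11, C1ql2 at 0.17, Egr4 at −0.14, Fibcd1 at 0.74, Lamp5 at −0.10, Lrrc10b at 0.0701 and Prox1 at 0.11. Under TPM Atp1b2 was at −0.26, Bsn at −0.0743, Cry2 at −0.0789, Gjb6 at −0.00959, Tmem119 at −0.0525 and Vamp2 at −0.22, all above the shift of all genes. The cause was not tested. With 3 libraries a group, of which 2 of those labelled CRS-NKAα1+/- have low Prox1, a difference in label and a difference in dissection cannot be told apart for genes that replicate 3 does not share.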

Other observations

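CRS-WT replicate 1 held further transcripts that the other libraries had at lower levels. Trp53, the tumour suppressor p53, stood at 44.8, 13.9 and 12.7 FPKM in CRS-WT replicates 1 to 3, at 7.47, 7.85 and 6.92 in the libraries labelled CRS-NKAα1+/-, and at 6.63, 16.7 and 6.85 in CRS-WT-DR5-12D. Cdkn2a, which encodes the cell-cycle inhibitors p16 and p19ARF, stood at 13, 4.12 and 1.97 in CRS-WT, at 0.545, 0.527 and 0.326 in the libraries labelled CRS-NKAα1+/-, and at 0.195, 2.74 and 0.209 in CRS-WT-DR5-12D. Both genes were thus also higher in CRS-WT-DR5-12D replicate 2 than in its other replicates. The collagen gene Col1a1 stood at 8.06, 2.26 and 1.67 in CRS-WT and at 0.817, 0.410 and 1.22 in the libraries labelled CRS-NKAα1+/-. Myoc, which encodes myocilin, stood at 20.2, 11.4 and 13.5 FPKM in CRS-WT and at 1.60, 1.28 and 6.09 in the libraries labelled CRS-NKAα1+/-. In CRS-WT-DR5-12D it stood at 2.26, 7.49 and 10.2. The low-Prox1 libraries lay below the others of their group, and replicate 3 of the label CRS-NKAα1+/- also lay below every CRS-WT library.

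Non-coding classes were not balanced between the directions. Among 1208 antisense RNAs the groups were apart with higher values in 13.6% and with lower values in 7.12%, beside 10.7% and 10.8% of 13457 protein-coding genes. Processed pseudogenes leaned the other way, with 4.96% higher and 12.1% lower of 564. Strandedness was not given in the sources used here, and the part of the Gm23935 share or of the dissection in these counts was not tested.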
